A study of Aspergillus fumigatus with 12 samples.

Results

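The 111 genes described here had lower messenger RNA in mycelium grown with an azo dye, stayed near the control level with sinapic acid alone, and with both compounds stood less than a set amount above the level with the dye alone. They were chosen from 10276 genes by limits on the measured values. Among the 7216 genes with a mean of 5 to under 1000 FPKM (fragments scaled to the length of the gene and to library size) over all 12 libraries, 393 had a mean log2(FPKM + 1) at least 0.8 lower in dye cultures than in controls. Of these, 155 differed by less than 0.4 log2 units between sinapic acid alone and controls. The 111 members are those among the 155 in which the level with both compounds lay less than 0.6 log2 units above that with the dye alone. They make up 1.54% of the 7216 genes. The word "kept" for this pattern is loose, since the last limit is an upper one only and lets a gene fall further or come back in part.

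The cultures were mycelium of strain X-13, in 4 groups of 3 libraries: basic medium with the dye Ponceau 2R (P2R), basic medium with Ponceau 2R and sinapic acid (P2R+SA), basic medium with sinapic acid (SA), and basic medium alone (CK). All 4 groups share the strain and the basic medium. Doses are not stated in the sources used here, nor is it said that replicate libraries are independent cultures, so the p-values behind the calls may in part reflect technical spread alone. The series title names Trametes hirsuta and the organism field Aspergillus fumigatus. A duration of 48 h is stated for all of them in the series design, but the column headers of the single-library files hold the number 48 for P2R+SA and SA and the number 36 for P2R and CK, and a further 4 for P2R+SA. Should this number be hours, effects of sinapic acid and of age of the culture cannot be told apart. The dye comparisons (P2R against CK, P2R+SA against SA) each keep to a single header number.

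Trametes species are white-rot fungi, which secrete laccases and peroxidases that oxidise lignin and many synthetic dyes. Ponceau 2R is a red dye built around an azo bond, and sinapic acid is a phenolic acid of plants, related to lignin units and known as a substrate and mediator for such enzymes. The series asks how sinapic acid alters gene expression while the fungus removes the dye. The gene IDs of the files are paired with no name, and 0 of 10276 matched the Aspergillus fumigatus reference table of 10086 genes, so no role, position or sequence is given for any member, and counts of laccases, peroxidases or other families among them were not made. By the naming rule 3 IDs are printed, and the other members are described by rank.

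Each library held 35919382 to 39408714 fragments, recovered from the values as whole numbers. The fewest fragments behind any member in any library were 33, and over the members the median of this lowest count was 695. Library P2R+SA replicate 1 stood apart from the other libraries of its group (Spearman correlation 0.9831 and 0.9816 with replicates 2 and 3, which correlated at 0.9957), and the SA libraries differed more among themselves (0.9744 to 0.9829) than those of P2R (0.9927 to 0.9962) or CK (0.9956 to 0.9965). Both facts touch the members, as given beside several of the results.

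In P2R the members had 19.8% to 57.3% of their mean FPKM in CK, with a median of 50.9%. In P2R+SA they had 20.03% to 85.9% of the CK mean, with a median of 62.1%, and in SA 73.9% to 234%, with a median of 92.9%. On the log2(FPKM + 1) scale the median difference from CK was -0.91 in P2R, -0.69 in P2R+SA and -0.12 in SA, beside -0.09, -0.11 and -0.04 over the 9240 genes tested. These differences chose the members and are a description, with no test. The P2R+SA median was -0.86 without P2R+SA replicate 1, and -0.56 or -0.62 without replicate 2 or 3. Most members lay near the limit: 72 of 111 had a P2R minus CK difference between -1 and the limit of -0.8, 33 between -1.5 and -1, and 6 at or below -1.5, here 4 down to -2 and 2 beyond it. RNA was taken from whole mycelium, in which fewer cells expressing a gene and less RNA per cell cannot be told apart.

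**Figure D1:**
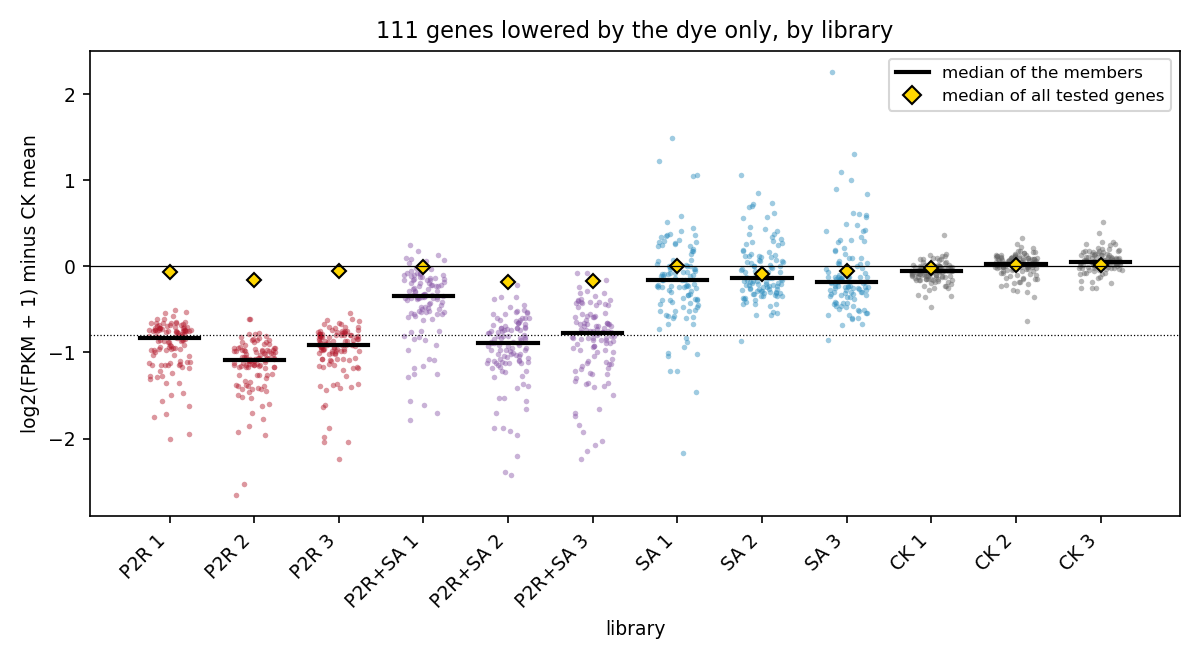
Difference of log2(FPKM + 1) from the CK mean (vertical axis) for each of the 111 members (points) in each of the 12 libraries (horizontal axis), with the member median as a bar, the median of all tested genes as a diamond and the dye limit of -0.8 as a dotted line. The 3 P2R libraries and P2R+SA replicates 2 and 3 have member medians between -1.09 and -0.78, while P2R+SA replicate 1 lies at -0.35 and the SA libraries between -0.18 and -0.14.

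The plot of members by library shows the size of the fall library by library. The member median relative to the CK mean was -0.84, -1.09 and -0.92 log2 units in P2R replicates 1, 2 and 3. In P2R+SA it was -0.35, -0.89 and -0.78, and in SA -0.16, -0.14 and -0.18. The median of all tested genes lay between -0.18 and 0.00 in these 9 libraries. The member median was further below CK in every P2R and P2R+SA library, which follows largely from choosing the members on these levels. Among the P2R libraries replicate 2 was the lowest for 79 of the 111 members (71.2%), against 53.5% of the 7216 genes in the same range of level. This share was 68.2% in the 44 genes that met the other limits but lay above the limit of 0.6. It was 57.1% in the 238 dye-lowered genes that sinapic acid alone moved by 0.4 log2 units or more. In 114 genes raised by the dye under mirrored limits it was 15.8%. Together the members took 0.595%, 0.532% and 0.569% of the summed FPKM in the P2R libraries, and 0.827%, 0.642% and 0.694% in P2R+SA. The share was 0.988%, 1.21% and 1.17% in SA, against 1.09%, 1.12% and 1.19% in CK, so the SA libraries spread around the CK libraries on this measure and all dye libraries lay below both.

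A09358 had the most negative difference between P2R and CK of all members (-2.21 log2 units). Its level was 29.5, 18.4 and 29.9 FPKM in P2R and 50.7, 30.4 and 37.8 FPKM in P2R+SA, against 157, 158 and 154 FPKM in SA and 117, 130 and 118 FPKM in CK. The 6 dye libraries were all below the 6 libraries without dye, and the SA libraries were all above the CK libraries. The P2R mean of 26.0 ± 6.51 FPKM was 21.4% of the CK mean of 122 ± 7.10 FPKM (SD, n = 3 each), and the P2R+SA mean of 39.6 ± 10.3 FPKM was 25.3% of the SA mean of 156 ± 1.95 FPKM (SD, n = 3 each). Its coding length was 1188 bp. A09358 also lies close to 2 limits, with a P2R+SA minus P2R difference of 0.59 and an SA minus CK difference of 0.36 log2 units.

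A09494, with a coding length of 1335 bp, came next with a P2R minus CK difference of -2.13 log2 units. It had 18.9, 9.68 and 12.1 FPKM in P2R and 26.1, 10.5 and 12.96 FPKM in P2R+SA, against 60.8, 53.6 and 57.4 FPKM in SA and 54.3, 62.6 and 65.4 FPKM in CK. Dye and no-dye libraries again did not overlap, while SA overlapped CK. Its P2R+SA libraries 2 and 3 lay within the P2R range and replicate 1 above it. The P2R mean was 13.6 ± 4.80 FPKM and the CK mean 60.8 ± 5.81 FPKM (SD, n = 3 each). The P2R+SA minus P2R difference was 0.21 log2 units, smaller than the SD of 0.65 log2 units between the P2R+SA libraries.

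A07567, with a coding length of 1002 bp, is the member with the highest P2R+SA minus P2R difference (0.60 log2 units), just inside the limit. It had 13.9, 17.2 and 18.9 FPKM in P2R and 29.3, 23.3 and 24.5 FPKM in P2R+SA, against 25.7, 32.1 and 49.8 FPKM in SA and 40.3, 32.7 and 38.8 FPKM in CK. The P2R+SA libraries lay between the P2R and CK libraries without overlap with either, and they overlapped the SA libraries, whose SD was 12.5 FPKM (n = 3). A07567 thus had a P2R+SA mean that was 68.9% of the CK mean, where A09494 had 27.2%.

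**Figure D2:**
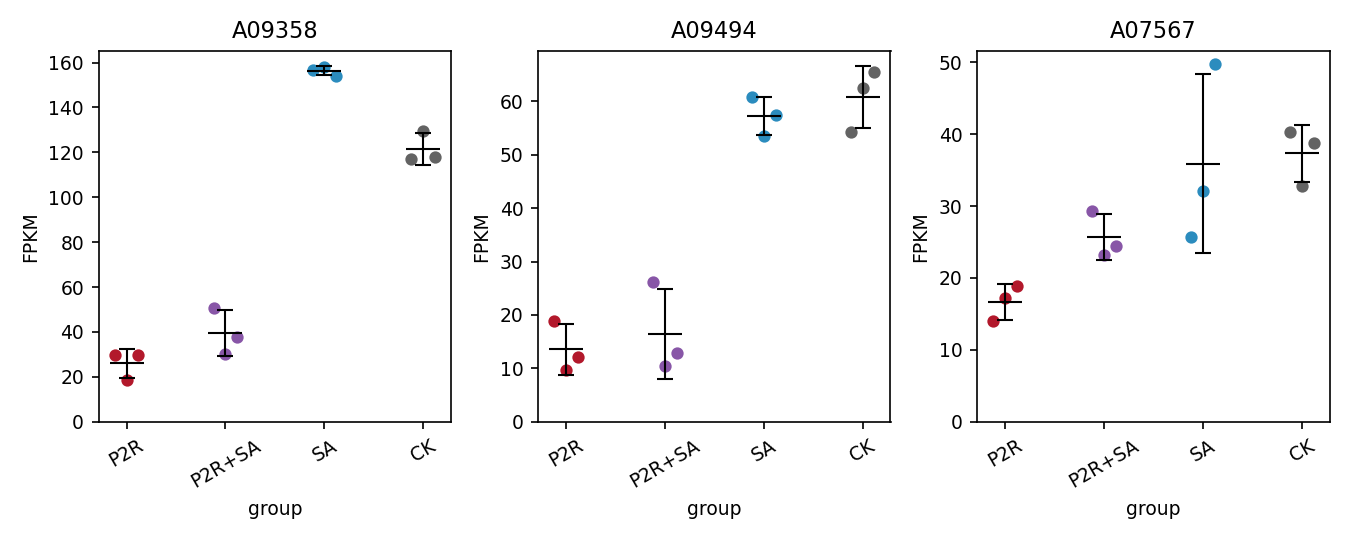
FPKM (vertical axis, starting at 0) of A09358, A09494 and A07567 in the P2R, P2R+SA, SA and CK groups; points are the 3 libraries of a group, the horizontal mark is their mean and the error bar their SD. In A09358 and A09494 the 6 dye libraries lie below all 6 libraries without dye, and in A07567 the P2R+SA libraries, at 23.3 to 29.3 FPKM, overlap the SA libraries.

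All 111 members had 3 P2R libraries below all 3 CK libraries, as did 36.3% of the 9240 tested genes. By limma with a Benjamini-Hochberg adjusted p under 0.05, 105 of 111 were lower in P2R than in CK, where 16.3% of tested genes were called lower. The rule used this contrast, so nothing is read from these counts. No member had a P2R library under 1 FPKM (0), but 2 had one under 2 FPKM and 11 had a P2R mean under 5 FPKM, where the added 1 shrinks the log2 difference. The lowest P2R mean was 1.62 FPKM and the median 22.3 FPKM, against a lowest CK mean of 7.11 FPKM and a median of 48.6 FPKM.

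With both compounds the members spread over a range. The P2R+SA minus P2R difference was below 0 in 11 members, from 0 to 0.3 log2 units in 44 and from 0.3 to the limit of 0.6 in 56, with a median of 0.31. Without P2R+SA replicate 1 this median was 0.11 log2 units. In 36 members all P2R+SA libraries were above all P2R libraries, as in 18.2% of tested genes, and in 2 they were all below, as in 20.5%. By limma, 14 members were higher in P2R+SA than in P2R (8.52% of tested genes) and 1 was lower (11.3%). Both the low P2R values and the upper limit of the rule shape this contrast, so nothing is read from these counts. In either direction 15 members were called, where 19.8% of tested genes were. Without P2R+SA replicate 1 there were 6 calls (26.3% of tested genes) and without replicate 3 also 6 (12.7%). Without P2R replicates 1, 2 and 3 there were 6, 2 and 3 (11.8%, 13.4% and 13.1%), and without CK replicates 1 and 2 there were 9 and 9 (16.8% and 16.4%).

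The member that fell furthest beyond the dye level was also 1 of the more abundant, with a coding length of 426 bp. Its level was 175, 112 and 126 FPKM in P2R+SA, against 223, 230 and 247 FPKM in P2R. It had 435, 541 and 433 FPKM in SA and 520, 488 and 552 FPKM in CK. P2R+SA, P2R and the libraries without dye thus formed 3 separate bands, with the P2R+SA mean at 26.5% and the P2R mean at 44.9% of CK. The most abundant member moved the other way, with a P2R+SA minus P2R difference of 0.57 log2 units, near the limit. It had 1127, 830 and 821 FPKM in P2R+SA, against 646, 598 and 612 FPKM in P2R. Its levels were 920, 1293 and 912 FPKM in SA and 1106, 1068 and 1060 FPKM in CK, so P2R+SA replicate 1 lay within the range without dye, replicates 2 and 3 below it, and the P2R libraries lower still. Its coding length was 1044 bp.

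**Figure D3:**
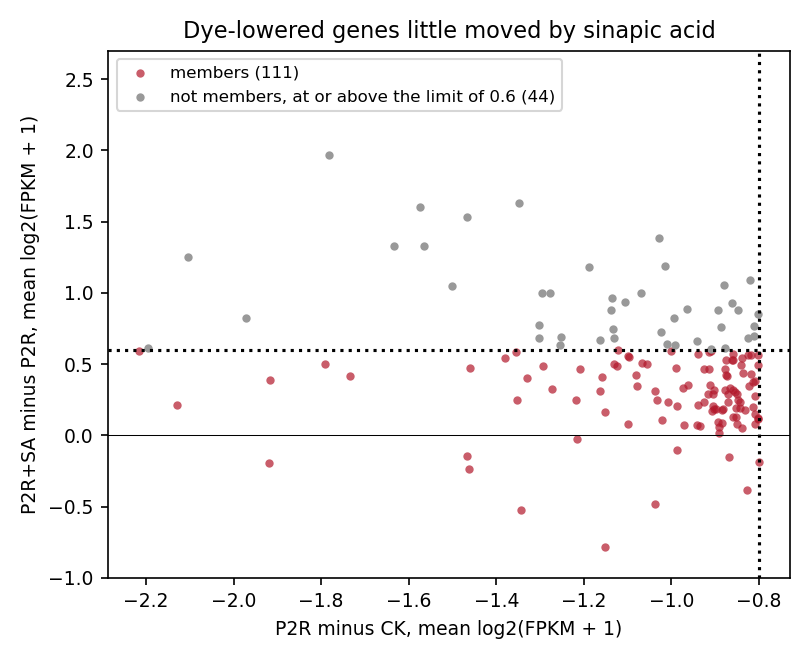
P2R+SA minus P2R (vertical axis) against P2R minus CK (horizontal axis), both as differences of mean log2(FPKM + 1), for the 155 dye-lowered genes little moved by sinapic acid alone; dotted lines are the limits. The 111 members lie below 0.6 and most of them between 0 and 0.6, and the other 44 genes lie above it with no gap at the limit.

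No gap separates members from the genes just outside the limits. The highest P2R minus CK difference among members was -0.8006 log2 units, and the nearest gene outside that met the other limits had -0.7998. For P2R+SA minus P2R the values were 0.599 inside and 0.608 outside, and for the absolute SA minus CK difference 0.399 and 0.404. A further 24 genes met the log2 limits with a mean under 5 FPKM, and 5 with a mean of 1000 FPKM or more.

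Compared with CK, P2R+SA libraries were all lower in 86 of 111 members (32.1% of tested genes), and limma called 74 lower (24.7%). Compared with SA, which has the same header number, they were all lower in 45 members (10.9%), and limma called 24 lower (3.16%). The rule used these levels too, so the counts describe the members and test nothing. The median P2R+SA minus SA difference was -0.53 log2 units, against -0.06 over all tested genes, and 110 of 111 members had a negative difference. Without P2R+SA replicate 1 the count with no overlap was 109 against CK (49.3% of tested genes) and 97 against SA (31.9%), and limma called 95 (33.6%) and 75 (13.5%). Leaving out a library can only keep or raise a count with no overlap. That count was not made without replicate 2 or 3, so nothing is read from its rise. Leaving out P2R+SA replicate 2 or 3 gave limma counts of 7 (0.758%) or 11 (1.13%) against SA and of 44 (15.7%) or 45 (15.4%) against CK. Leaving out CK replicate 2 gave 47 against CK (16.8%). The share of all tested genes called by limma moved in the same direction as the members' limma count each time. No member had P2R+SA above SA in all libraries (0, where 8.04% of tested genes did) or by limma (0, against 2.88%), and 0 had it above CK in all libraries (22.5%).

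Library P2R+SA replicate 1 was the highest of its group in 98 of the 111 members (88.3%). Over the 7216 genes in the same range of level this share was 57.1%, in the 44 dye-lowered genes above the return limit it was 88.6%, and in 114 genes that met the mirrored limits (raised by the dye, little moved by sinapic acid, still raised with both) it was 11.4%. In the members replicate 1 lay a median of 0.52 log2 units above the mean of replicates 2 and 3, and in the mirrored set a median of 0.50 log2 units below it (-0.50), against 0.15 over the 7216 genes. In both sets this library lay, by the median, nearer to the CK level than replicates 2 and 3 did. This gap between libraries of 1 group was not part of the rule. Replicate 1 was above all P2R libraries in 103 members (44.4% of tested genes), and replicates 2 and 3 were both above them in 37 (23.8%). The labels give no reason for this library to differ, and its part in the P2R+SA means was not tested beyond the values given without it.

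**Figure D4:**
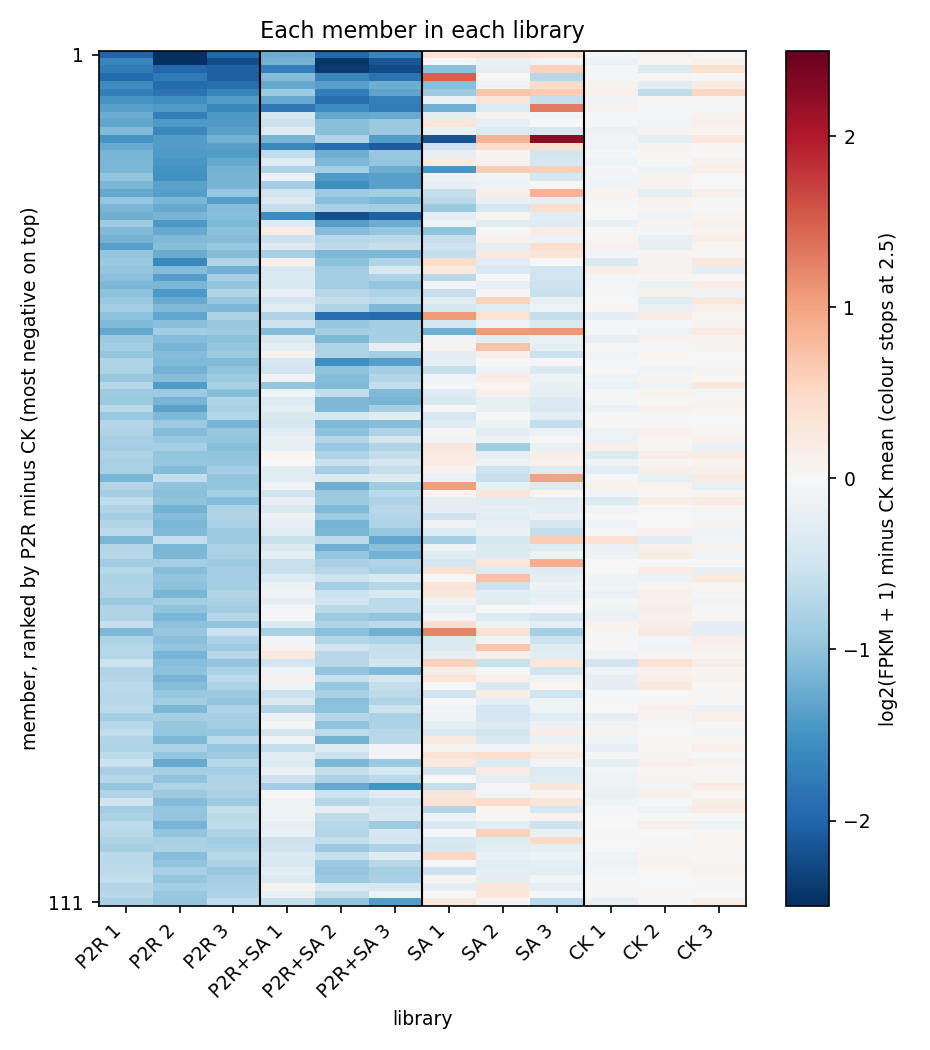
Colour shows log2(FPKM + 1) minus the CK mean for each member (rows, ranked by P2R minus CK with the most negative on top) in each library (columns, P2R, P2R+SA, SA and CK from left to right). P2R+SA replicate 1 is paler than replicates 2 and 3 in most rows, and single SA libraries depart from CK in both directions in some rows.

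With sinapic acid alone the members were near CK on average, by the rule, with 80 of 111 slightly below it and 31 above. Single libraries were less even. All 3 SA libraries lay within 0.4 log2 units of the CK mean in 43 members, and in 20 members (18.0%) the SA libraries spanned over 1 log2 unit, against 11.3% of the 7216 genes. This share was 15.8% in the mirrored set, 47.7% in the 44 genes above the return limit and 49.2% in the 238 dye-lowered genes that sinapic acid alone moved by 0.4 log2 units or more. SA replicate 1 was at least 1 log2 unit below the mean of replicates 2 and 3 in 10 members and at least 1 above it in 4. The widest case had 2.01, 23.4 and 63.8 FPKM in SA, against 11.96, 10.7 and 15.4 FPKM in CK. Its P2R libraries, at 3.82, 4.16 and 4.996 FPKM, and its P2R+SA libraries, at 5.07, 7.07 and 4.13 FPKM, were all below CK. For such a member the mean difference between SA and CK stands for no single SA library. In an opposite case SA replicate 1 was the high one, with 32.8, 11.01 and 6.46 FPKM in SA, against 10.5, 11.6 and 10.9 FPKM in CK. All SA libraries lay below all CK libraries in 15 members (24.2% of tested genes) and above them in 3 (14.6%). Limma called 0 members lower in SA than in CK (9.84% of tested genes) and 0 higher (6.79%). At an unadjusted p under 0.05 by limma there were 3 members (32.2% of tested genes), and limma-voom called 0 (16.5%). The limit on SA minus CK keeps all these counts low, so nothing is read from them. Without SA replicates 1, 2 and 3 the limma counts were 4, 4 and 3 (12.7%, 22.7% and 14.8% of tested genes), and without P2R+SA replicate 1 the limma count was 1 (24%).

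The dye difference was smaller beside sinapic acid than without it in most members, with a median of -0.53 log2 units for P2R+SA minus SA and -0.91 for P2R minus CK. The P2R+SA minus SA median was -0.68 without P2R+SA replicate 1, and -0.69 without that library and SA replicate 1. Without P2R+SA replicate 2 or 3 it was -0.41 or -0.47, so its size depends on the libraries used. The median interaction (the sinapic acid difference with the dye less that without it) was 0.43 log2 units, against 0.01 over all tested genes. Limma called it in 0 members, higher (0.455% of tested genes) or lower (0.693%), and limma-voom in 0 (0.887%). At an unadjusted p under 0.05 by limma there were 31 members (14.6% of tested genes), 30 of them positive. The limma count was 2, 6 and 1 without SA replicates 1, 2 and 3 (1.86%, 3.57% and 1.49% of tested genes) and 1 without P2R+SA replicate 1 (1.54%). The limits were set on these same levels, so these counts and the order of the medians are partly set by the choice of members.

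Values in libraries that did not choose the genes were read by applying the rule to the libraries of 2 numbers and measuring the chosen genes in the third. Choosing on replicates 2 and 3 gave 204 genes, whose median difference from CK in the libraries numbered 1 was -0.65 log2 units in P2R, -0.18 in P2R+SA and -0.07 in SA. Choosing on replicates 1 and 3 gave 61 genes, with medians of -1.08, -0.89 and 0.04 in the libraries numbered 2. Choosing on replicates 1 and 2 gave 90 genes, with -0.87, -0.88 and -0.22 in the libraries numbered 3. Nearly all chosen genes were lower with the dye in the unused pair: the P2R library was below the CK library in 200 of 204, 60 of 61 and 88 of 90 genes, where it was below in 54.6%, 63.4% and 55.3% of tested genes. The dye limit itself was met by 69, 46 and 59 of them. The median P2R+SA minus P2R difference was 0.45, 0.12 and 0.04 log2 units in the libraries numbered 1, 2 and 3, and the median P2R+SA minus SA difference was -0.11, -1.04 and -0.54. The whole rule was met in the held-out libraries by 7 of 204, 32 of 61 and 27 of 90 genes. For the dye limit and the whole rule no share of all tested genes is given, so those counts are a description only. The median fall with the dye alone was repeated in unused libraries, at a smaller size in those numbered 1 and 3 than in the libraries used to choose, and the fall with both compounds was repeated in the libraries numbered 2 and 3 but much less in those numbered 1. The libraries share a number and no other known origin, so these are values from 1 library per group.

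**Figure D5:**
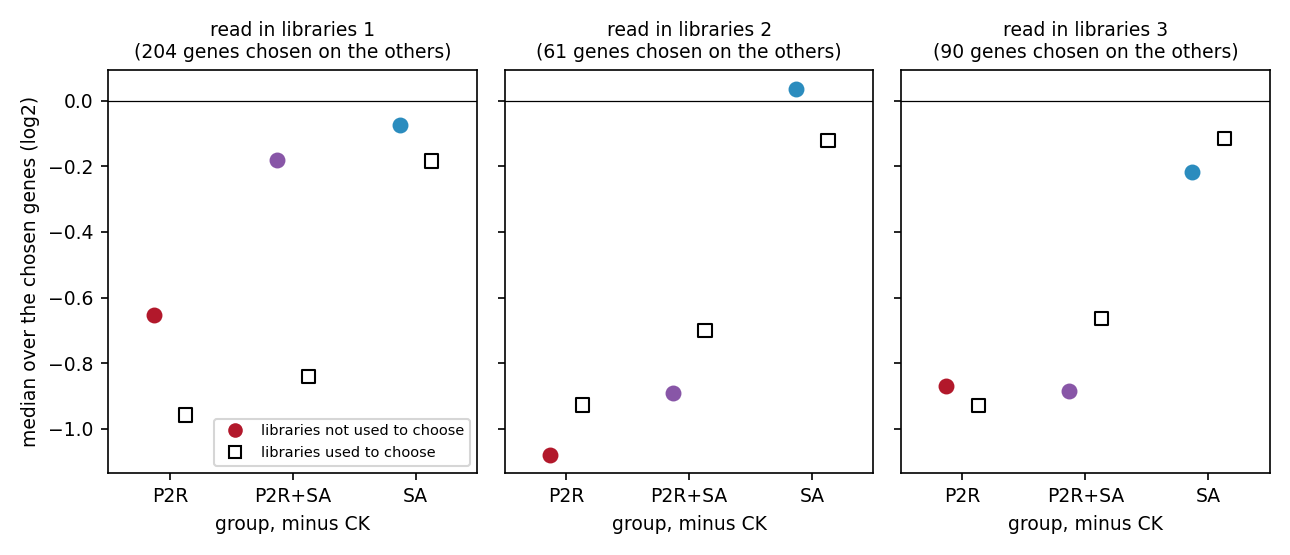
Median difference from CK in log2(FPKM + 1) (vertical axis) for P2R, P2R+SA and SA (horizontal axis) over genes chosen by the rule on the libraries of 2 numbers; open squares are the libraries used to choose, filled circles the libraries of the third number. P2R+SA lies at -0.89 and -0.88 in the libraries numbered 2 and 3, and at -0.18 in those numbered 1.

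Few members met the limits in every library. All P2R libraries were at or below -0.8 relative to the CK mean in 48 members, all P2R+SA libraries were under 0.6 above the P2R mean in 42, and 3 members met these limits and the SA limit in all 9 libraries. In 44 members all 6 dye libraries were below all 6 libraries without dye, as in 3.83% of tested genes. In 96 members P2R+SA replicates 2 and 3 were both below all SA and CK libraries, as in 28.3% of tested genes. The counts of 44 and 96 are partly set by choosing the members on these levels, so nothing is read from them.

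Coding length, which the rule did not use, is given with level and spread as a description, with no test. The members' coding length had a median of 1158 bp (quartiles 810 and 1554 bp), against 1365 bp (903 and 2091 bp) for the 7216 genes of the same range, 1149 bp for the 44 genes above the return limit and 1322 bp for the mirrored set. The shortest member had 357 bp and the longest 5364 bp. The longest had 24.5, 22.4 and 22.9 FPKM in P2R and 19.2, 15.3 and 13.6 FPKM in P2R+SA, against 42.0, 83.3 and 80.9 FPKM in SA and 55.8, 63.9 and 62.2 FPKM in CK. Across members, coding length and the P2R minus CK difference had a Spearman rho of 0.03, and mean FPKM and that difference one of 0.01 (n = 111 genes, which are not independent). By mean level, 15 members lay from 5 to 10 FPKM (13.5%, against 15.8% of the 7216 genes), 80 from 10 to 100 (72.1%, against 64.0%) and 16 from 100 to 1000 (14.4%, against 20.2%). The median SD between libraries, in log2 units, was 0.16 in P2R, 0.32 in P2R+SA, 0.25 in SA and 0.11 in CK, against 0.13, 0.21, 0.22 and 0.09 for the 7216 genes. Of the 218 IDs numbered next to a member's ID, 2 were members (0.917%, where 1.08% of all IDs are members), and no source used here says whether the numbering follows the genome.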

How the data were processed

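Messenger RNA of mycelium was sequenced in 12 libraries (4 groups of 3, taken from the sample titles). The deposited FPKM values were made by the authors; HISAT2, HTSeq, fastp and R 3.2.0 are named in the submitters' processing notes, without roles. Genome build, annotation and strand setting: not given in the sources used here. The series-wide table was used; it differs from the single-library files by at most 4.9e-06 FPKM.

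Whole fragments were recovered from the unrounded single-library values, taking coding lengths as multiples of 3 bp, for 100.0% of 10276 genes (tolerance 1e-06 fragments up to 100 fragments and 1e-08 of the count above). Summed fragments met the library totals to within 22. They served for depth, coding length and limma-voom. Precision of low values is limited by these counts.

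The members and all lists were chosen with earlier results of these data known. limma 3.58.1 in R 4.3.3 was fitted with an intensity trend to log2(FPKM + 1) over all 12 libraries, for the 9240 genes that reached 1 FPKM in at least 3 libraries, with Benjamini-Hochberg adjusted p under 0.05, two-sided. Fold changes on this scale understate the change of low genes. Simulated data were used to test the recovery of fragments and limma for P2R vs CK. The limma simulation gave all genes and libraries the same dispersion and held no outlying library such as P2R+SA replicate 1. IDs named are the 2 members with the most negative P2R minus CK difference and the 2 with the highest P2R+SA minus P2R difference; A09358 is in both pairs, which leaves 3. Alternatives were pseudocount, scaling, filter, replicate block, array weights, limma-voom, compared libraries alone and left-out libraries. Counts without overlap after leaving out P2R+SA replicate 1, alone or with SA replicate 1, and the alternatives for the named IDs, were added after seeing the data.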

Additional observations from a re-analysis of the deposited data

How the results depend on the processing

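Median-of-ratios scaling left 64 genes under the same limits, 58 of them among the 111, and leaving out 1 library gave 79 (P2R replicate 2) to 137 (P2R replicate 1). The median of all tested genes in P2R vs CK was -0.0024 log2 units with this scaling and -0.0513 with quantile normalization, against -0.0913 as deposited. In P2R+SA vs CK it was -0.005 with this scaling and -0.01 with quantile normalization, against -0.114 as deposited. The median over the members for SA minus CK was -0.0634 with median-of-ratios scaling, -0.10 with quantile normalization, -0.15 without SA replicate 1 and P2R+SA replicate 1, and -0.16 to -0.11 with 1 library left out. In held-out libraries numbered 1, 2 and 3 it was -0.0748, 0.0367 and -0.22, with -1.08 to -0.65 for P2R minus CK and -0.89 to -0.18 for P2R+SA minus CK. The median P2R+SA minus P2R was 0.11 to 0.43 with 1 library left out and 0.04 to 0.45 in held-out libraries.

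Members called lower in P2R+SA than SA were 80 with array quality weights (14.4% of all tested genes), 3 with the compared libraries alone (0.195%), 78 without SA replicate 1 and P2R+SA replicate 1 (15.5%), and 7 to 75 with 1 library left out (0.758% to 13.5%). Against CK the count was 44 to 95 (15.4% to 33.6%). Members called in P2R+SA vs P2R were 25 with array quality weights (50.9%) and 2 to 21 with 1 library left out (11.8% to 26.3%). The ends of such a range of counts and of shares do not always belong to the same run. Here 2 calls went with 13.4% (without P2R replicate 2) and 21 with 23.3% (without SA replicate 2). Members called in SA vs CK were 1 with the compared libraries alone (14.5%) and 5 without SA replicate 1 and P2R+SA replicate 1 (21.8%). With 1 left out they were 0 to 4 (8.77% to 24%), where the 24% went with 1 member. Interactions were called in 1 member with quantile normalization (1.41%), 5 with array quality weights (5.35%), 3 without both of those libraries (3.72%), and 0 to 6 with 1 left out (0.38% to 3.57%). The causes were not tested.

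Same-numbered libraries did not deviate together throughout, although some pairs did: 3 of 18 pairs had a correlation over 0.1 (range -0.322 to 0.542). Of the 12 libraries, 0 correlated best with their own number in every other group. With the replicate number as a block, 103 members were lower in P2R than CK (14.5% of tested genes). In P2R+SA, 76 were lower than CK (23.5%) and 21 lower than SA (2.24%). Members called in P2R+SA vs P2R were 12 (17.6%), in SA vs CK 0 (14.4%) and in the interaction 0 (0.703%). For the 3 named IDs, the P2R minus CK difference kept its direction under every alternative run, from -2.33 to -1.99 for A09358, -2.38 to -1.93 for A09494 and -1.21 to -1.01 for A07567. Smaller differences did not: P2R+SA minus P2R of A09494 was -0.16 without P2R+SA replicate 1, against 0.21 with all libraries, and SA minus CK of A07567 was 0.10 without SA replicate 1, against -0.10. Depth was alike in all libraries and limits only the lowest members.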
